A study of Mus musculus with 6 samples.

Results

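To describe NF-YA binding at histone genes in mouse muscle stem cells (MuSCs), the NF-YA CUT&RUN peaks annotated to genes with a histone symbol were examined. Members were all peaks whose listed gene symbol begins as mouse histone symbols do (H1f, H2a, H2b, H2w, H3c, H3f, H4c, H4f or Hist). The rule found 61 of 9056 peaks, which belonged to 46 of 5024 annotated genes when counted by gene identifier. By symbol there were 23, since 7 symbols stood for more than 1 gene, with 8 genes each under H3c2 and H4c1. Genes are therefore named here as GENCODE M21 names the identifier: in Hist1h2bb, for example, the digit after Hist is the gene cluster, h2b the histone family and the last letter the gene. All 46 genes were listed as protein coding, and their listed descriptions all named a histone.

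Histones are the proteins around which DNA is wrapped in nucleosomes. H2A, H2B, H3 and H4 form the nucleosome core, and the linker histone H1 binds the DNA between cores. Most histone proteins come from replication-dependent genes that sit in clusters and are transcribed in S phase, when new DNA must be packed, whereas replication-independent genes, such as those for H2A.Z and H2A.X, encode variants made throughout the cell cycle. NF-Y is a trimeric transcription factor whose NF-YA subunit recognises the CCAAT box, and CCAAT boxes are a known feature of many H2A, H2B and H3 promoters. Many H2A and H2B genes are arranged head to head and share the DNA between their start sites.

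The cells were wild type MuSCs of C57BL/6 mice, the stem cells of skeletal muscle, grown in culture and labelled as activated/proliferating. The 6 samples were 3 CUT&RUN libraries made with an NF-YA antibody and 3 made with mouse IgG, in which the antibody directs a nuclease to its target and the DNA released is sequenced. Values of the 3 NF-YA libraries are reported, and those of the 3 IgG libraries are not analysed here. These 3 libraries are 1 group, so levels are described across libraries and no condition is compared. The authors scaled the reads in each peak by a library size factor and rounded them, and these values are called normalised reads below. They are not corrected for peak length. In replicates 1, 2 and 3, a single read was worth 0.669, 1.48 and 1.02 of these units. Histone peaks made up 0.674% of all peaks and held 1.26%, 1.23% and 1.19% of the normalised reads in peaks of the 3 libraries, which corresponded to about 5997, 2781 and 3970 reads. No histone peak in replicate 1, 3 in replicate 2 and 1 in replicate 3 were at or below 3 reads. Markers of the cell type cannot be checked in binding data of this kind.

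Of the 61 peaks, 54 were promoter peaks, meaning that the peak centre lay within 1000 bp of the annotated 5′ end of the gene. They belonged to 44 genes, and 7 peaks lay farther away. The gene cluster Hist1 on chromosome 13 carried 38 peaks at 29 genes, Hist2 on chromosome 3 carried 10 peaks at 9 genes, and Hist3 on chromosome 11 carried 5 peaks at 2 genes. The remaining 8 peaks lay at H2afz on chromosome 3, H1fx, H2afj and Hist4h4 on chromosome 6, H2afx on chromosome 9 and H2afv on chromosome 11.

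The sequences below were read from the GRCm38 (mm10) reference and are printed 5′ to 3′, with each CCAAT, or ATTGG where the box lies on the other strand, in capitals. The stretch between the 5′ ends of Hist1h2ad and Hist1h2bf, a divergent H2A–H2B pair under 1 strong peak, is chr13:23574197-23574380 on the plus strand, with 4 boxes in 184 bases.
Hist1h2ad/Hist1h2bf: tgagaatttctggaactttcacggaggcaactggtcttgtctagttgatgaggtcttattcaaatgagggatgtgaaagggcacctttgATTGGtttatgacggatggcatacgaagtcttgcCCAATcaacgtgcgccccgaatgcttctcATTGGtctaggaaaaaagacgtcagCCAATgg

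The 4 promoters below carried the peaks with the highest mean in H2A, H2B, H3 and H4, each printed on the gene's strand and ending at the base before the annotated 5′ end. They are chr11:6444444-6444693 on the minus strand for H2afv, chr13:23746534-23746733 on the plus strand for Hist1h2bb, chr13:23535122-23535421 on the plus strand for Hist1h3g and chr13:23698455-23698654 on the minus strand for Hist1h4c. They held 4, 3, 3 and 2 boxes.
H2afv: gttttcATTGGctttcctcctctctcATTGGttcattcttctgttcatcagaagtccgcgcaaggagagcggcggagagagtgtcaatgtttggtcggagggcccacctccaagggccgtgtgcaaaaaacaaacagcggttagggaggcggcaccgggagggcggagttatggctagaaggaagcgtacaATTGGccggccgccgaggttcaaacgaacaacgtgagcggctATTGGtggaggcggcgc
Hist1h2bb: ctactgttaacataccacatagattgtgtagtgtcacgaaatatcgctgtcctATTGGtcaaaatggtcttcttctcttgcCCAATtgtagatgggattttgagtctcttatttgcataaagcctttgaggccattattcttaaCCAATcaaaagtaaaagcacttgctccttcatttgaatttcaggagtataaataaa
Hist1h3g: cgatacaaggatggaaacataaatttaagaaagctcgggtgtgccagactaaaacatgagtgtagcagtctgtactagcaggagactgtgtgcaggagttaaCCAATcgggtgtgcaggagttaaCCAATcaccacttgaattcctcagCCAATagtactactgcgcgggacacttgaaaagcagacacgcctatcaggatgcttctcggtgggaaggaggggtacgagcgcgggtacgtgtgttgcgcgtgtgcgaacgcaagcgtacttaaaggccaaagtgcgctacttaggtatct
Hist1h4c: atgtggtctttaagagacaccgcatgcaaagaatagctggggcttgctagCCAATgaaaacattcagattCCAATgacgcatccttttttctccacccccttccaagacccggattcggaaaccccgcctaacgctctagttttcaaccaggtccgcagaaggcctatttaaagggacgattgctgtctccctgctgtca

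Contrasting cases follow. Hist1h4f (chr13:23551649-23551848, minus strand) had a weak peak and 0 boxes in the 200 bases shown. The testis-type pair Hist1h2aa and Hist1h2ba had 4 boxes between the 5′ ends and no peak, and 300 bases of that stretch are shown (chr13:23934160-23934459, plus strand).
Hist1h4f: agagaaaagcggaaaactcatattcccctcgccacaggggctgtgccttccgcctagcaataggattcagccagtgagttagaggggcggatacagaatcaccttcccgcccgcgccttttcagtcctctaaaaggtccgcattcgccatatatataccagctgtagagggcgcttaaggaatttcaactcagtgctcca
Hist1h2aa/Hist1h2ba: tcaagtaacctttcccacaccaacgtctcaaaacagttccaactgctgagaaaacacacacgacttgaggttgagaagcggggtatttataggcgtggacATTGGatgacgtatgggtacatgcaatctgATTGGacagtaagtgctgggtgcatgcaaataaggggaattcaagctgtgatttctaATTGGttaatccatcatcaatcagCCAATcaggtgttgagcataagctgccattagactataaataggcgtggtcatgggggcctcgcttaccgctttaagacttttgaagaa

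Histone promoter peaks had higher NF-YA levels than the other protein-coding promoter peaks in all 3 libraries. The median histone promoter peak had 40, 46.5 and 41 normalised reads in replicates 1, 2 and 3, compared with 31, 30 and 32 in 3479 other protein-coding promoter peaks. On the log2 scale the medians differed by 0.45 ± 0.16 (SD, n = 3 libraries; exact two-sided sign-flip permutation test over libraries, p = 0.25, the smallest p that 3 libraries allow). Of the 54 histone promoter peaks, 29 (53.7%) were among the top 25% of all peaks by mean, at 36.7 normalised reads or more, beside 45.2% of the other protein-coding promoter peaks. The size of the ratio depended on 10 histone promoter peaks centred 500 to 1000 bp from the 5′ end, whose means ranged from 4.00 to 35.3: within 500 bp the log2 ratio was 1.09. Per kb of peak it was 0.29, since histone promoter peaks were longer, with a median of 308 bp compared with 253 bp.

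The families differed widely (plot of levels by family). H4 genes had the lowest levels. The median promoter peak of replication-dependent H4 genes had 14, 13 and 11 normalised reads, whereas that of H2A, H2B and H3 genes together had 56, 61 and 44. The log2 ratio between them was 2.08 ± 0.13 (SD, n = 3 libraries, 41 and 7 peaks). Without H4, histone promoter peaks exceeded other protein-coding promoter peaks by 0.98 ± 0.13 on the log2 scale, whereas H4 promoter peaks were below them, at -1.40 ± 0.25 (SD, n = 3 libraries). By its strongest promoter peak, the median of 21 H2A and H2B genes was 115, 100 and 107 normalised reads, and that of 12 H3 genes was 50, 52 and 40, a log2 ratio of 1.19 ± 0.24 (SD, n = 3 libraries). The sign-flip permutation test cannot go below p = 0.25 for any of these ratios, and genes are not replicates, so the families were not tested against each other.

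**Figure D1:**
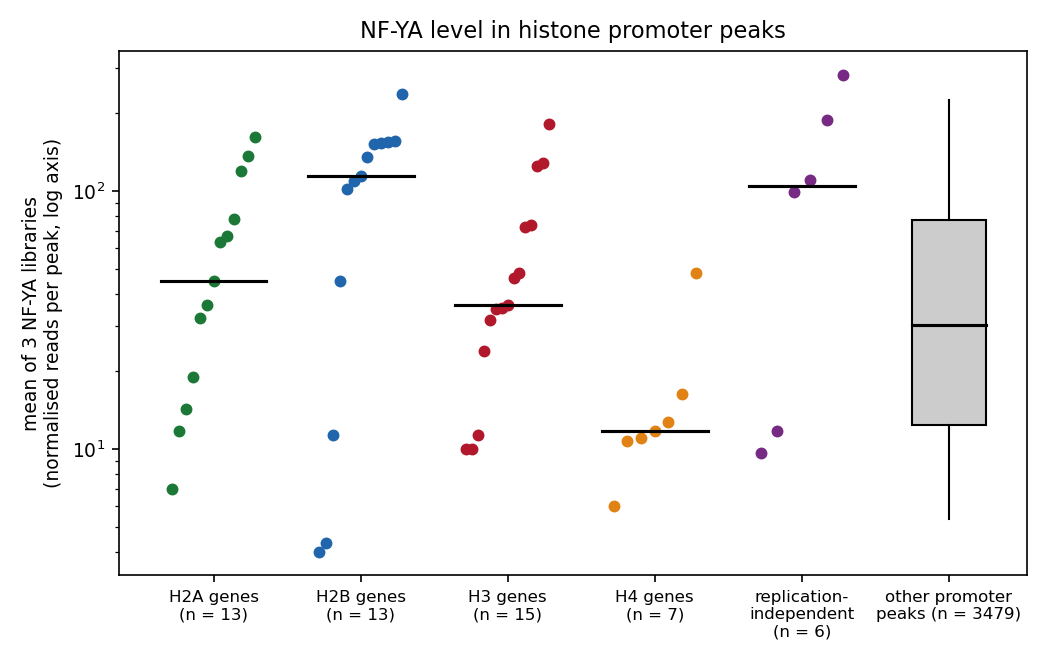
Each point is 1 promoter peak of a replication-dependent gene (H2A, H2B, H3, H4) or of a replication-independent gene, at its mean over the 3 NF-YA libraries in normalised reads per peak (log axis), with the median of each group as a line. The box gives the median and quartiles, and the whiskers the 5th and 95th percentiles, of 3479 other protein-coding promoter peaks. H2B peaks centred on a median of 114 and H4 peaks on 11.7, with 1 H4 peak (Hist1h4c) at 48.0.

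H2B proteins pair with H2A in the nucleosome core. The strongest H2B peak lay at Hist1h2bb (ENSMUSG00000075031, peak chr13:23746367-23746973) with 214, 263 and 239 normalised reads (mean 239 ± 24.5, SD, n = 3), which ranked 172 of 9056 peaks. The peak was 64 bp upstream of the annotated 5′ end by its centre and covered all 3 boxes of the sequence above. Hist1h2bk had 186, 151 and 132 and Hist1h2bn had 167, 136 and 162 normalised reads. In contrast to Hist1h2bb, both were highest in replicate 1. Among 11 H2B genes with a promoter peak, 10 had a strongest peak in the top 25%. The exception, Hist3h2ba, had 15, 12 and 7 normalised reads although its peak held 4 CCAAT boxes. The lowest H2B promoter peak was a second peak of Hist1h2bm, 631 bp upstream, with 3, 6 and 3, whereas the peak next to that gene's 5′ end had 163, 149 and 143.

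Among replication-dependent H2A genes, the strongest peak by mean was that shared by Hist1h2ad and Hist1h2bf, with 186, 140 and 161 normalised reads (mean 162 ± 23.0, SD, n = 3, rank 359). It covered chr13:23574130-23574544 and hence the whole stretch printed above. A second peak at Hist1h2ad, 586 bp downstream of the 5′ end, was the lowest of the family, with 4, 13 and 4. Of the other peaks listed under an H2A gene, Hist1h2ae and Hist1h2ag had means of 137 ± 8.14 and 120 ± 15.5 (SD, n = 3), and the peaks of some H2A genes are listed under their H2B partner, as described for the pairs. The copies Hist2h2aa1 and Hist2h2aa2 were lower, with 11, 10 and 14 and with 25, 31 and 41 normalised reads.

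There were 12 divergent H2A–H2B pairs with less than 500 bp between the annotated 5′ ends, and 9 of them had a peak, 1 each. In all 9, that peak covered both 5′ ends. The 5′ ends lay 175 to 301 bases apart, with 2 to 5 CCAAT boxes between them, and the peak means ranged from 67.0 at Hist2h2ac/Hist2h2be to 162 at Hist1h2ad/Hist1h2bf. The median pair peak had 131, 133 and 132 normalised reads in replicates 1, 2 and 3. Since the table lists 1 gene per peak, 4 of these peaks were annotated to the H2A gene and 5 to the H2B gene, and 9 partner genes had no peak of their own name (Hist1h2ac, Hist1h2ah, Hist1h2ai, Hist1h2ak, Hist1h2an, Hist1h2bf, Hist1h2bg, Hist1h2bj and Hist2h2be). Levels of H2A and H2B genes are hence not separate measurements in these pairs. The 12 other H2A or H2B genes with a promoter peak ranged more widely, from 11.3 at Hist3h2ba to 239 at Hist1h2bb, with medians of 55, 60.5 and 53.5 (plot of pairs and other H2A and H2B genes).

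**Figure D2:**
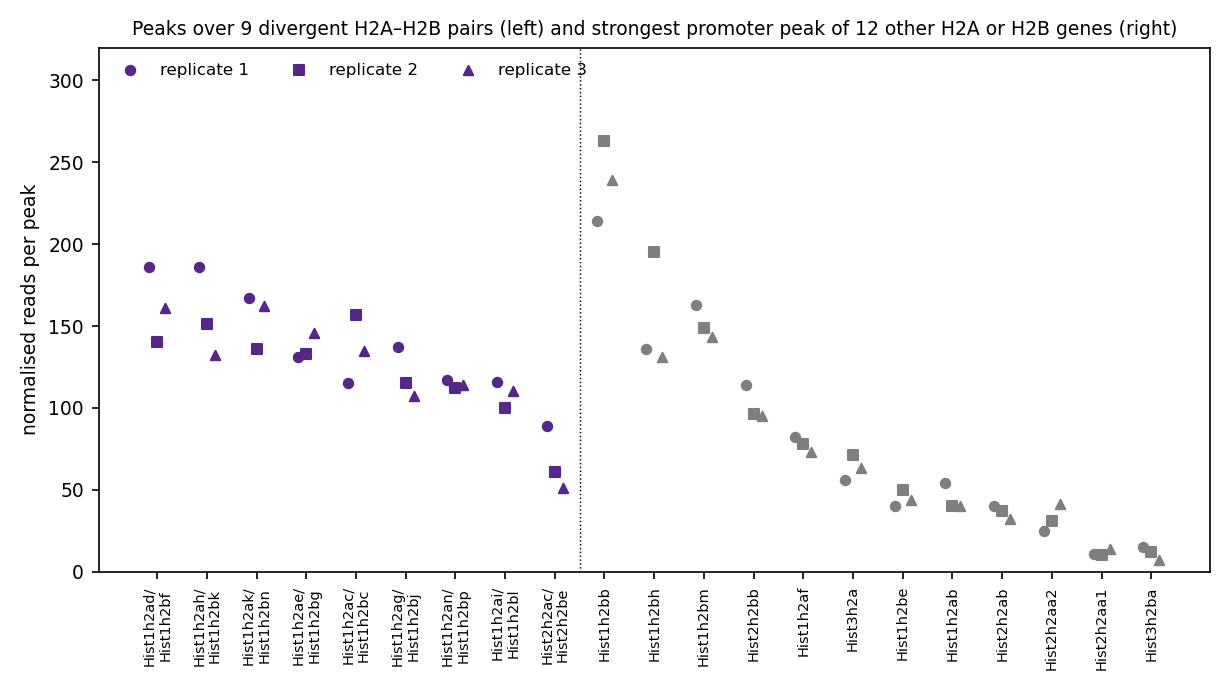
Normalised reads per peak in each of the 3 NF-YA libraries (circle, replicate 1; square, replicate 2; triangle, replicate 3) for the 9 divergent H2A–H2B pairs with a peak, left of the dotted line, and for the strongest promoter peak of 12 other H2A or H2B genes, right of it. Of the 9 pairs, 8 sat at or above 100 in every library, while the other genes spread from 7 to 263.

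The 3 pairs without a peak fell into different kinds. Hist1h2ao/Hist1h2bq and Hist1h2ap/Hist1h2br each had 3 boxes between the 5′ ends. In both, 100% of the 38-base words in a promoter (250 bases before to 50 after the 5′ end) occurred more than once in the genome. The authors kept only uniquely mapped reads, of 38 bases in replicate 1 and 61 bases in replicates 2 and 3, and the part of repeated sequence in the missing peaks was not tested. Hist1h2aa/Hist1h2ba had 4 boxes and 0 repeated words, and its nearest peak centre was over 20 kb away, at 20143 bp from Hist1h2ba. These genes are known for H2A and H2B variants of the testis.

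H3 genes all had a peak: 12 of 12 in the annotation, beside 19.0% of all protein-coding genes. The strongest was at Hist1h3g (chr13:23534825-23535445), with 141, 202 and 202 normalised reads (mean 182 ± 35.2, SD, n = 3, rank 293). This 621-bp region had no box within 50 bp of its centre, but held 5 boxes, 3 on the downstream side (the 3 of the sequence above) and 2 on the upstream side. Hist1h3f had 115, 123 and 148, and Hist1h3a had 102, 136 and 137. The lowest H3 promoter peaks, both with a mean of 10.0, were a second peak of Hist1h3i (10, 13 and 7) and that of Hist2h3c1 (9, 10 and 11). Replicate 1 was the lowest of the 3 libraries in 8 of 12 strongest H3 peaks, beside 36.9% of other protein-coding promoter peaks with a mean of at least 10, whereas it was the highest in 7 of 11 H2B peaks, beside 28.6% of the same other peaks. Library-specific differences of this size enter the SD given with each mean.

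H4 promoter peaks were low. The highest was at Hist1h4c (chr13:23698454-23698745), with 37, 59 and 48 normalised reads (mean 48.0 ± 11.0, SD, n = 3, rank 1789), and its promoter held the 2 boxes shown above. The next were Hist2h4, whose stronger peak had 22, 15 and 12 but lay 962 bp downstream of the 5′ end, and Hist1h4h, with 16, 7 and 15 at 715 bp downstream. Hist1h4j had the lowest H4 promoter peak, with 7, 6 and 5, centred 763 bp upstream, and the peak of Hist1h4k, 1146 bp upstream and thus no promoter peak, had 5, 3 and 5. At the 5′ end itself, Hist1h4f had 11, 13 and 9, Hist1h4d had 11, 13 and 11, and Hist2h4 had 14, 10 and 8. Counting error alone gives a CV of 30.4% to 31.4% at these 3 peaks, so differences among them were not detectable at this depth. Of 13 H4 genes in the annotation, Hist4h4 included, 8 (61.5%) had an annotated peak, beside 19.0% of all protein-coding genes, and 4 (30.8%) had a peak overlapping the 500 bp upstream of the 5′ end, beside 14.7%. Hist1h4a, Hist1h4b and Hist1h4i had none annotated to them although their promoters had under 1% repeated words. Hist1h4m and Hist1h4n also lacked a peak, with 94.3% repeated words in each.

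Replication-independent genes included the strongest histone peak. H2afv, which encodes H2A.Z.2, had 291, 272 and 285 normalised reads (mean 283 ± 9.71, SD, n = 3, rank 122) in a peak covering chr11:6444326-6444869. H2afx, the gene of H2A.X, which is phosphorylated at DNA breaks, had 189, 174 and 201. H2afz, which encodes H2A.Z.1, had 113, 99 and 117, and H2afj had 99, 108 and 91. The spread between libraries was small at all 4, with CVs of 3.44% to 8.62%. Weak second peaks lay at H2afv, 327 bp downstream with 11, 10 and 8, and at H2afz, 3850 bp upstream with 11, 3 and 6. The lone H4 gene Hist4h4, placed in this list because it lies outside the clusters, had 11, 19 and 5 in a peak 577 bp downstream. Replication-dependent promoter peaks were lower than the 6 of this list by -1.36 ± 0.09 on the log2 scale (SD, n = 3 libraries; exact two-sided sign-flip permutation test, p = 0.25), and by -0.89 per kb of peak. H1f0 and the macroH2A genes H2afy and H2afy2 had no annotated peak, and the 300-base promoters of all 3 lacked CCAAT. The 300-base promoters of H1fx, H3f3a and H3f3b also lacked CCAAT. Each of these genes had an annotated peak, centred 9715, 350 and 3224 bp from the annotated 5′ end. These peaks held 1, 1 and 5 boxes.

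No H1 gene had a promoter peak under the symbol rule: its member H1fx had a single peak of 29, 30 and 23 normalised reads, 9715 bp upstream. The clustered H1 genes are listed with symbols such as H1-1 that the rule does not match. Among these, promoter peaks lay at Hist1h1a (31, 22 and 37), Hist1h1b (46, 58 and 46) and Hist1h1c (19, 53 and 37 at 398 bp upstream and 19, 19 and 13 at 29 bp, with a further 33, 24 and 47 at 990 bp downstream). Hist1h1d had 106, 132 and 103 and 36, 16 and 27 at peaks that the table places 2973 and 1765 bp downstream of the annotated 5′ end. The latter peak was centred 5 bp from the curated RefSeq 5′ end of this gene. The genes of histone H3.3, also outside the rule, had 21, 35 and 19 (H3f3a) and 175, 192 and 177 (H3f3b, centred 234 bp upstream of a RefSeq 5′ end). Cenpa, which encodes the centromeric H3 variant, had 64, 59 and 43. With all histone genes counted, the log2 ratio to other promoter peaks was 0.39.

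CCAAT lay within 50 bp of the peak centre in 39 of 54 histone promoter peaks (72.2%, 95% Wilson interval 59.1 to 82.4), compared with 65.4% of other protein-coding promoter peaks, a share within that interval. The interval takes peaks as independent, although the 54 peaks belonged to 44 genes, and may be too narrow. Anywhere in the peak, 45 of 54 (83.3%) and 80.1% held a box. The number of boxes differed more, with a median of 2 in histone peaks and 1 in the others. In the 300-base promoters, at least 1 CCAAT on either strand was found in 18 of 18 H2A, 18 of 18 H2B, 11 of 12 H3, 5 of 6 H1 and 4 of 13 H4 genes, beside 39.0% of all protein-coding promoters. Of the 67 promoters of genes named Hist1 to Hist4, 33 had 3 or more boxes, compared with 3.72% of all protein-coding promoters.

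Peaks with more boxes had higher levels in both histone and other promoter peaks (plot of level by number of boxes). Histone promoter peaks with 0 boxes had medians of 10, 10 and 8 normalised reads in the 3 libraries (9 peaks). With 1 box they had 12.5, 14 and 9.5 (6 peaks), with 2 boxes 35.5, 40 and 39.5 (14 peaks), and with 3 or more 115, 115 and 117 (25 peaks). Other protein-coding promoter peaks had 9, 10 and 11 with 0 boxes and 21, 21 and 20 with 1. They had 53, 50 and 54 with 2 and 125, 123 and 132 with 3 or more. With 1 or more boxes, the histone medians were thus below those of the other peaks in every library. Peak length moved with the number of boxes, from a median of 140 bp with 0 boxes to 406 bp with 3 or more in histone peaks, and its part in this relation was not tested.

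**Figure D3:**
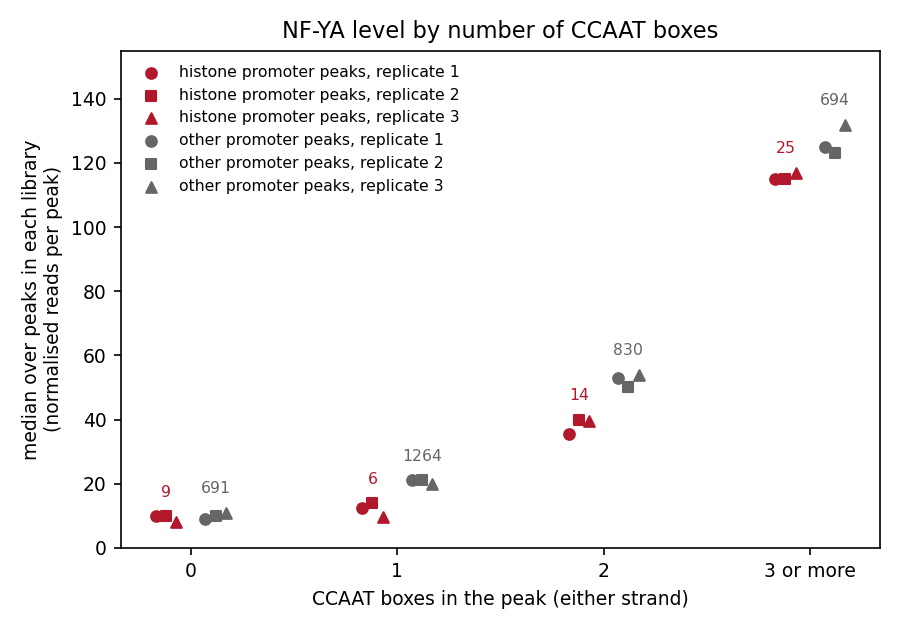
Median normalised reads per peak in each NF-YA library (circle, replicate 1; square, replicate 2; triangle, replicate 3) against the number of CCAAT boxes in the peak on either strand, for histone promoter peaks (red) and other protein-coding promoter peaks (grey), with the number of peaks above the points. Both sets were at 8 to 11 without a box and at 115 to 132 with 3 or more. With 1 or 2 boxes, the histone medians were below those of the other peaks in every library.

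Most boxes lay just upstream of the 5′ end (plot of peaks and boxes by distance). Of 123 boxes in histone promoter peaks, 102 (82.9%) lay within 250 bp upstream, with a median of 109 bp, and 109 (88.6%) lay within 100 bp of the peak centre. Boxes were counted only inside promoter peaks, so their place depends on that of the peaks. Histone promoter peaks were centred within 250 bp upstream in 64.8%, beside 64.0% of other protein-coding promoter peaks. The orientation differed between families. In H3 peaks 31 of 37 boxes read CCAAT on the gene's strand, compared with 13 of 29 in H2A and 17 of 35 in H2B peaks, many of which face a second gene. Neighbouring boxes were a median of 34 bp apart in histone peaks and 45 bp in other promoter peaks. Of the histone neighbours, 40 of 78 (51.3%) pointed in opposite directions, compared with 35.7%. For neighbours on the same strand, the median spacing differed little, at 43.5 and 46 bp. Similar shares of them lay 20 to 60 bp apart, 23 of 38 in histone peaks and 1145 of 1854 in the others. A spacing of 30 to 32 bp was less frequent in histone peaks, with 1 of 38 compared with 278 of 1854. This difference was not tested. Histone promoter peaks were centred a median of 83.5 bp upstream of the 5′ end, compared with 66 bp in the others. In relation to the start codon, the strongest promoter peak was centred within 350 bp upstream in 35 of 40 genes named Hist1 to Hist4, Hist4h4 included, with a median of 126 bp. Hist1h3f was one of these: its peak centre lay 327 bp downstream of the annotated 5′ end but 106 bp upstream of the start codon, with 3 boxes in the peak. The 5 others were the H4 genes Hist1h4h, Hist1h4j, Hist2h4 and Hist4h4, and Hist1h2be, whose annotated transcript starts over 35 kb before its start codon.

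**Figure D4:**
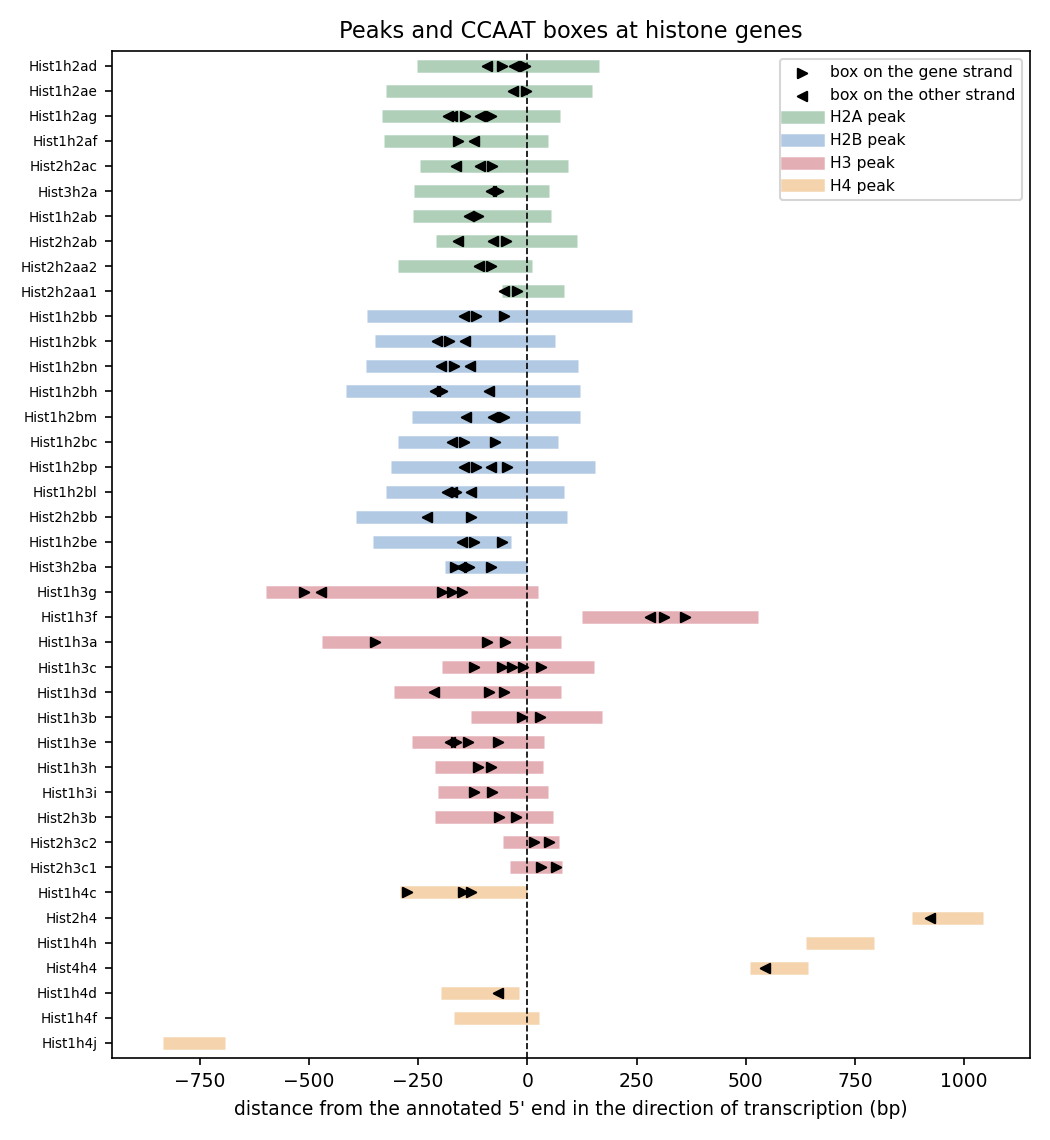
The strongest promoter peak of each of 40 genes named Hist1 to Hist4 (bars, coloured by family, ordered by mean level within the family) and its CCAAT boxes (triangles, pointing right where the box reads CCAAT on the gene's strand) by distance from the annotated 5′ end in bp, with upstream negative. The H2A, H2B and H3 peaks drawn hold 2 or more boxes each, while 4 of 7 H4 peaks lie over 500 bp away.

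Other motifs known from histone promoters were counted in the same 300-base promoters on both strands. The TATA box TATAAA was found in 12 of 18 H2A, 10 of 18 H2B, 4 of 12 H3, 7 of 13 H4 and 4 of 6 H1 promoters, beside 12.6% of all protein-coding promoters. The octamer ATTTGCAT, a binding site of OCT1 known from H2B promoters, was found in 8 H2B and 7 H2A promoters and in none of the H1, H3 and H4 promoters, beside 1.57%. The H1 box AAACACA was found in 4 of 6 H1 promoters, beside 6.40%, and the E2F-type site TTTCCCGC in 3 of 13 H4 promoters, beside 1.34%. Divergent H2A and H2B genes share the same DNA, so their counts overlap. These are matches of letters only.

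The annotation holds 67 protein-coding histone genes named Hist1 to Hist4, called replication-type here and including Hist4h4, of which 45 (67.2%, 95% Wilson interval 55.3 to 77.2) had an annotated peak, beside 19.0% of all protein-coding genes. With partner genes counted, 49 (73.1%) had a peak overlapping the 500 bp upstream of the 5′ end, beside 14.7%. In promoters with at most 50% repeated words, this share was lower with 0 or 1 box than with more. It was 2 of 9 genes with 0 boxes, 4 of 7 with 1, 12 of 12 with 2 and 27 of 29 with 3 or more. The corresponding shares of other protein-coding genes were 5.21%, 20.9%, 48.4% and 73.9%. With at least 1 box it was 43 of 48 histone genes (89.6%, 95% Wilson interval 77.8 to 95.5), beside 32.2%. In these counts by box number, each of the 9 divergent pairs with a peak entered as 2 genes under 1 shared peak. The interval takes genes as independent and is therefore too narrow. The 5 histone genes with a box and no peak overlapping the 500 bp upstream were Hist1h2aa, Hist1h2ba, Hist1h1t, Hist1h1e and Hist1h4a. The first 3 are known as genes of male germ cells, and Hist1h1e encodes the somatic linker histone H1.4. The 2 genes with 0 boxes and a peak were Hist1h4f and Hist1h3f, whose upstream region is overlapped by the peak of the neighbouring Hist1h2bh (136, 195 and 131).

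Levels at near-identical gene copies are uncertain. Of 67 histone promoters, 10 had over 50% repeated words of 38 bases, beside 11.3% of all protein-coding promoters. Of these 10 genes, 4 had a peak upstream, compared with 45 of the 57 others. The 4 peaks had means of 10.0 to 32.3: Hist2h3c1, Hist2h3c2, Hist2h2aa1 and Hist2h2aa2. Whether repeated sequence sets these levels was not tested. With peaks of at most 10% repeated words, the log2 ratio of histone to other promoter peaks was 0.78.

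The 7 peaks farther than 1000 bp from the 5′ end included 2 in the top 25%. The peak listed 5468 bp downstream of Hist3h2a had 74, 81 and 97 normalised reads, exceeding the 56, 71 and 63 at that gene's own 5′ end. It lay nearest to the RefSeq gene H3f4, 1558 bp upstream of it, and a weaker peak (8, 10 and 11) lay 8 bp upstream of H3f4. The peak listed 4463 bp downstream of Hist1h4d had 51, 62 and 59 and lay 91 bp upstream of a RefSeq 5′ end of H2bc6, the current name of Hist1h2be. Thus Hist1h2be had a peak at both of its annotated 5′ ends, the other with 40, 50 and 44. In all, 56 of 61 peaks had a 5′ end of the annotated gene as the nearest curated RefSeq 5′ end.

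The median CV of histone promoter peaks over the 3 libraries was 15.9%, compared with 19.3% in other protein-coding promoter peaks. Among peaks with means of 11.9 to 118, the interquartile range of histone promoter peaks, it was 13.6% compared with 18.3% in 2148 other promoter peaks. The counting error expected at each histone promoter peak, a root mean square over libraries divided by the mean, had a median of 15.4%. This is not the same measure as a median of CVs observed over 3 libraries, so the values are not directly comparable.

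Genes that supply and handle histones were also examined, and 15 of 28 had a promoter peak, beside 14.8% of all protein-coding genes. In the group of histone locus and mRNA processing genes, these were 4 of 13, beside the same 14.8%. Casp8ap2, which encodes FLASH, a component of the histone locus body, had 120, 86 and 120 normalised reads. Slbp, whose product binds the stem-loop at the end of replication-dependent histone mRNAs, had 68, 69 and 79. Npat, the coactivator of histone transcription, had 11, 7 and 11, and Eri1, an exonuclease that acts on histone mRNA ends, had 5, 7 and 5. Coil, Lsm10, Lsm11, Zfp473, Cpsf2, Cpsf3, Sympk, Cstf2 and Ncbp1 had no annotated peak.

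Among 15 histone chaperone and import genes, 11 had a promoter peak, also beside 14.8% of all protein-coding genes. Asf1b, the chaperone of new H3 and H4 in proliferating cells, had 263, 236 and 284 normalised reads (mean 261 ± 24.1, SD, n = 3, rank 139) and 5 boxes in its peak, whereas its relative Asf1a had 23, 25 and 21. Cabin1, a subunit of the HIRA complex, had 98, 121 and 96. Rbbp4, a histone-binding subunit of CAF-1 and other complexes, had 88, 74 and 96, and its relative Rbbp7 had 29, 25 and 18. Chaf1a, the large subunit of CAF-1, had 50, 52 and 44, whereas Chaf1b had 11, 6 and 11. Daxx had 52, 50 and 45 and its partner in H3.3 deposition, Atrx, had 9, 6 and 3. Hat1, which acetylates new H4, had 32, 24 and 21, and Nasp, an H3–H4 chaperone, had 11, 21 and 15. Hira, Ubn1, Hjurp and Ipo4 had no annotated peak, although a peak overlapped the 500 bp upstream of Ubn1 and of Hjurp.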

How the data were processed

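NF-YA CUT&RUN was performed on cultured wild type MuSCs, with 3 NF-YA and 3 IgG libraries. According to the methods and the submitters' processing notes, the authors trimmed reads with Trimmomatic 0.39, aligned them with STAR 2.7.9a to mm10, removed duplicates with Picard 2.25.5, kept uniquely mapped reads, called peaks with MACS2 at an FDR of 0.05 against IgG, unified them and counted reads with featureCounts. The deposited values are a score: counts normalised by the authors with DESeq2 1.30.0 and rounded to whole numbers. The libraries used for peak calling are those whose levels are given, and size-factor scaling hides a change of all peaks together.

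From these values, medians per library, log2 ratios of medians and shares were computed with Python 3.11.15, numpy 2.4.6, pandas 2.3.3, scipy 1.17.1 and pysam 0.24.0. The value of 1 read was estimated from the whole numbers that occur, giving about 477155, 226924 and 334651 reads in peaks in replicates 1, 2 and 3. Floors allow only for the counting error of reads. Intervals include only the sampling of genes or peaks, taken as independent, and no error of reads or libraries. Replicates were called biological in the methods, and 3 libraries limit every SD. Gene names and 5′ ends came from GENCODE M21, with which the start and end of all 46 genes matched, and curated 5′ ends from RefSeq on GRCm38. Repeated words are 38-base words, the read length of replicate 1 (61 bases in replicates 2 and 3), found more than once in the genome on either strand. CCAAT was searched on both strands. The functions were tested on simulated data.

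The members, gene lists, motifs and alternatives were chosen with earlier results of these data known. Genes named with values were, in each family, the 3 promoter peaks with the highest mean and the lowest, all H1 promoter peaks and replication-independent genes, distant peaks in the top 25%, and supply genes with a promoter peak. Further genes were named for pairs, copies or missing peaks after their values were seen. The table had 0 value columns without an assigned sample. IgG values did not enter any comparison.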

Additional observations from a re-analysis of the deposited data

How the results depend on the processing

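Of 31 alternatives for 6 results, 19 moved the value by less than its spread or interval, 12 moved it further and 0 turned its direction. The log2 ratio of histone to other promoter peaks, 0.45, became 1.09 with promoters of 500 bp, 0.73 with 5000 bp, 0.29 per kb, 0.78 with at most 10% repeated words and 0.98 without H4, and 0.36 to 0.50 without 1 replicate. The ratio of replication-dependent to replication-independent genes, -1.36, became -0.89 per kb, -1.24 with a mean of at least 10, -1.26 with 5000 bp, and -1.40 to -1.31 without 1 replicate. The share of histone promoter peaks with CCAAT, 72.2%, became 83.3% over the whole peak and 37.0% with a longer consensus, which other promoter peaks held in 34.5%. The median CV, 15.9%, was 11.1% to 15.7% without 1 replicate, lowest without replicate 2. The cause of these moves was not tested. The 500 bp limit selects by distance, and the 10 histone promoter peaks it left out had means of 4.00 to 35.3. Other protein-coding promoter peaks centred 500 to 1000 bp away were also low, with a median of 17.8 beside 32.3 within 500 bp. The removal of H4 left out a family already seen to be low. The alternatives on repeated words, on H4 and on all histone genes were chosen after seeing the data.

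No paired analysis was possible because values of the 3 IgG libraries, which share the replicate numbers, were not analysed here. With 3 libraries of 1 group, the smallest p was 0.25. Replicate 2, with the fewest reads in peaks, limits the weak H4 peaks most, since 3 reads there amount to 4.43 normalised reads. Levels at near-identical copies in the clusters are uncertain.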
